A study of Mus musculus with 4 samples.

Results

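Amino acid transporter genes were examined in E14 cells, a mouse embryonic stem cell line, after depletion of Usp22. The genes were taken by symbol alone, from the solute carrier families Slc1, Slc3, Slc6, Slc7, Slc36, Slc38 and Slc43, and 64 of the 19938 genes with 1 symbol on the array matched. The set is wider than its name. It holds 10 Slc6 genes for carriers of neurotransmitters, creatine, taurine or an unsettled substrate, and 2 genes, Slc6a19os and Slc7a6os, that carry a transporter's symbol with an "os" ending and encode no member of these families.

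The 4 samples were one-colour Affymetrix arrays of total RNA. In 2 samples the cells had received lentivirus with an shRNA against Usp22, and in 2 controls lentivirus with an shRNA against Luc. Both groups were kept on gelatin, with no feeder cells, and with LIF, 20% FBS, glutamine and non-essential amino acids. The MEK blocker PD0325901 (1 µM) and the GSK3 blocker CH99021 (3 µM) were added for both. The labels do not say whether replicates were separate cultures, so each p-value reflects only how far these samples spread, and that spread may be technical. Signals are given on the log2 scale after quantile normalization. A gene is called above the receptor background when its mean over the 4 arrays exceeds 6.99, the 95th percentile of 1194 olfactory and vomeronasal receptor genes. Signals of different genes come from different probes and are not ranked against each other.

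Amino acids cross membranes on carriers with overlapping substrates. Light chains of the Slc7 family exchange one amino acid for another and reach the surface bound to a heavy chain, Slc3a1 or Slc3a2, while other Slc7 proteins carry cationic amino acids alone. The Slc1 and Slc38 families use the sodium gradient to take up glutamate, glutamine and small neutral amino acids, and several Slc36 and Slc38 proteins act on lysosomes, where amino acid supply is reported to mTORC1. Mouse embryonic stem cells are known for a high demand for threonine and glutamine.

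Most of the 64 genes did not pass the test, and the 4 that did encode carriers of glutamate or of cationic and large neutral amino acids. The light chain gene Slc7a7 rose 2.12-fold, and the glutamate carrier genes Slc1a3 and Slc1a1 rose 1.97-fold and 1.92-fold. The control means of these 3 genes lay under the receptor background, as did every Slc1a3 reading, so their folds are against dim signals. Another glutamate carrier gene, Slc1a2, fell 1.82-fold. The rises were thus 3 of 64 genes (4.69%), where 2.62% of all genes rose, and the fall was 1 of 64 (1.56%), where 0.105% of all genes fell (limma adjusted p under 0.05). At an unadjusted limma p under 0.05, 9 transporter-family genes were higher and 9 lower (14.1% each, beside 15.4% and 6.63% of all genes). The widely studied carriers of stem cell metabolism (Slc7a5, Slc3a2, Slc38a2, Slc1a5, Slc7a3) had log2 fold changes under 0.5 in size, and none passed. After median centring of the arrays Slc7a3, Slc38a2 and Slc1a5 exceeded that, at 0.62, 0.60 and 0.59.

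Usp22 itself read 9.41 and 9.36 in controls and 8.23 and 8.29 in depleted cells, a fall of 1.12 on the log2 scale (limma adjusted p = 0.00826), so the labels held for the targeted gene. Of 10 pluripotency markers 9 were above the receptor background on every array, and their summed log2 signal was at least 99.3 in controls and ran from 98.8 to 99.2 in depleted cells. Within that sum Klf4 (−0.64), Esrrb (−0.50) and Nanog (−0.42) were lower and Sox2 (0.59) higher. None of the 10 passed (limma; 1 higher and 1 lower at an unadjusted p under 0.05). With the intensity trend and robust settings Nanog, Klf4 and Sox2 did (limma adjusted p = 0.00257, 0.0215 and 0.0120). Under these settings 1.91% of all genes rose and 1.7% fell. Fibroblast, primitive endoderm and neural markers lay partly under the receptor background. Their sums ran from 60.0 to 62.9, 46.6 to 48.7 and 67.5 to 71.5 in controls, and from 59.3 to 59.4, 45.2 to 45.3 and 65.5 to 66.4 in depleted cells (9, 7 and 10 genes). Control replicate 2 stood apart from the other arrays, since the median gap between the control arrays was 0.38 for the 64 genes (0.36 for all genes) and that between the depleted arrays 0.18 (0.18). In 51 of the 64 genes (79.7%) control replicate 2 lay farther from the depleted mean than control replicate 1 did, as in 78.4% of all genes. The marker sums of the other cell types were also highest on that array, and their part in the results was not tested. In bulk RNA, fewer cells of a type and less RNA per cell cannot be told apart.

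**Figure D1:**
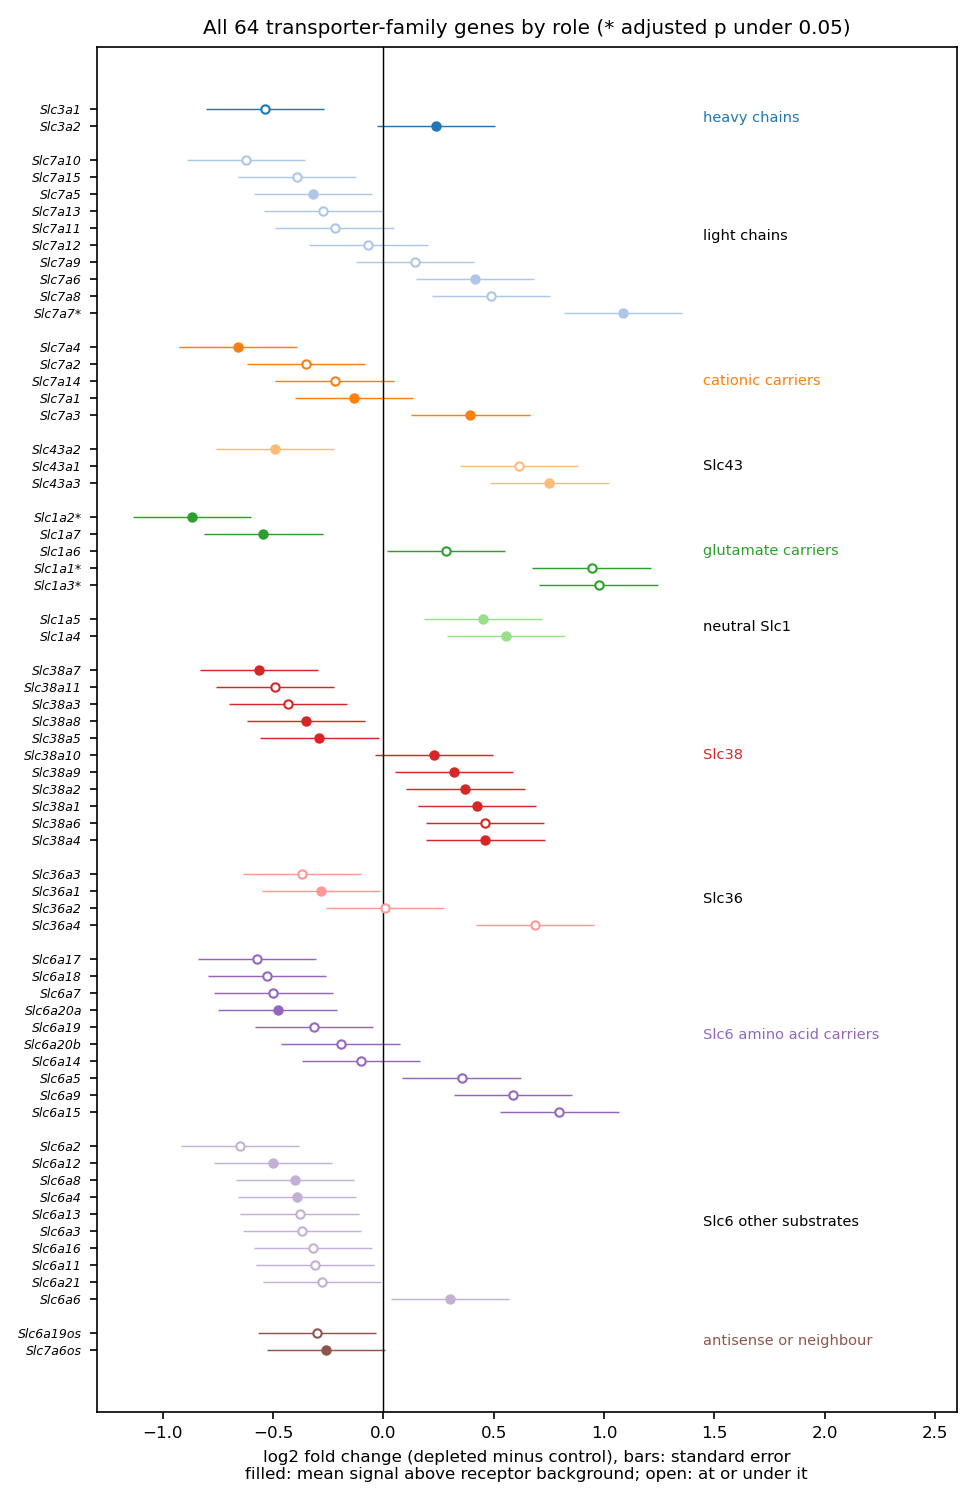
Log2 fold change (depleted minus control, 2 arrays each) of the 64 genes, ordered by role, with the standard error of 0.27 that the limma fit gave every gene. Filled points had a mean signal above the receptor background. Slc7a7, Slc1a1, Slc1a3 and Slc1a2, marked with a star, passed the test, and values ran from −0.87 (Slc1a2) to 1.09 (Slc7a7).

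The heavy chain genes and the light chains that need them gave 1 call. Slc7a7, whose product exports cationic amino acids in exchange for neutral ones with sodium, read 7.11 and 6.53 in controls and 7.96 and 7.85 in depleted cells. Both depleted arrays lay above both controls, and its group means were 6.82 ± 0.41 and 7.91 ± 0.083 (SD, n = 2 each; log2 fold change 1.09 with a standard error of 0.27 and a limma adjusted p of 0.0112). Slc3a2, which encodes the heavy chain CD98, read 9.24 and 8.86 in controls and 9.25 and 9.33 in depleted cells. Control replicate 1 was level with depleted replicate 1, so the log2 fold change of 0.24 (limma adjusted p = 0.536) rested on control replicate 2 and was 0.05 without it. Slc7a5, the light chain that pairs with CD98 to exchange leucine and other large neutral amino acids, read 10.65 and 10.63 in controls and 10.21 and 10.44 in depleted cells. Its groups did not overlap, with the depleted arrays lower by 0.32 on the log2 scale, and the change did not pass (limma adjusted p = 0.417). It was −0.07 after median centring of the arrays, so its size depends on the scaling.

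Among the other light chains, Slc7a11, the cystine and glutamate exchanger, read 4.96 and 5.60 in controls and 4.99 and 5.12 in depleted cells, all under the receptor background. Its groups overlapped, and its value of −0.22 (limma adjusted p = 0.566) became 0.10 without control replicate 2. Slc7a6, a light chain with substrates close to those of Slc7a7, stood at 0.41 (0.17 without control replicate 2), and its neighbour Slc7a6os at −0.26. Slc7a8 stood at 0.49 with all arrays and at −0.26 without control replicate 2. Slc7a10, a carrier of small neutral amino acids, stood at −0.62, and Slc3a1, the heavy chain of the renal cystine carrier, at −0.54, both under the receptor background and neither passing (limma adjusted p = 0.161 and 0.218). Across the 10 light chains the median log2 fold change was −0.14 (−0.01 without control replicate 2), with 3 above the receptor background.

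The 5 glutamate carrier genes held 3 of the 4 calls, in opposite directions. Their products take up glutamate and aspartate with sodium and are best known from neurons and glia. Slc1a1 read 6.62 and 6.22 in controls and 7.41 and 7.31 in depleted cells. All controls lay under the receptor background and both depleted arrays above it, with means of 6.42 ± 0.28 and 7.36 ± 0.069 (SD, n = 2 each; log2 fold change 0.94, limma adjusted p = 0.0306). Slc1a3, a carrier of glia and of several stem cell types, read 6.14 and 5.38 in controls and 6.93 and 6.54 in depleted cells. Although its groups did not overlap (log2 fold change 0.98, limma adjusted p = 0.0257), every one of its readings was under the receptor background. Slc1a2, the main glutamate carrier of astrocytes, read 8.55 and 9.23 in controls and 7.79 and 8.25 in depleted cells. Its means of 8.89 ± 0.48 and 8.02 ± 0.32 (SD, n = 2 each) did not overlap in their arrays, and the log2 fold change was −0.87 (limma adjusted p = 0.0470). Slc1a7, expressed in retina, stood at −0.54 (−0.17 without control replicate 2; limma adjusted p = 0.214), so the carriers of this role did not share a direction. All 10 neural and glial markers were lower by their means in depleted cells, with a median log2 fold change of −0.36 (−0.17 without control replicate 2). In the limma fit 0 passed (0 at an unadjusted p under 0.05), and 2 of the 10 lay above the receptor background. By their means 57.4% of all genes and 78.7% of the 1194 receptor genes were also lower. The median of the receptor genes was −0.20 (−0.05 without control replicate 2). The part of neural or glial cells in the Slc1a2 result was not tested.

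The upstream windows of the 4 genes that passed are shown, as the sequences before their annotated start sites. Where their RNA starts in these cells was not measured. RefSeq sequences (GRCm38.p6) were matched for 47 of the 64 genes through the gene ID, and each window is the 250 bases before the start site farthest upstream, 5′ to 3′ on the gene's strand. The windows lie at chr14:54417945-54418194, minus strand, for Slc7a7, at chr19:28834885-28835134, plus strand, for Slc1a1, at chr15:8710808-8711057, minus strand, for Slc1a3, and at chr2:102706188-102706437, plus strand, for Slc1a2. Capitals mark a match to the core of the amino acid response element, through which the factor ATF4 acts.
Slc7a7: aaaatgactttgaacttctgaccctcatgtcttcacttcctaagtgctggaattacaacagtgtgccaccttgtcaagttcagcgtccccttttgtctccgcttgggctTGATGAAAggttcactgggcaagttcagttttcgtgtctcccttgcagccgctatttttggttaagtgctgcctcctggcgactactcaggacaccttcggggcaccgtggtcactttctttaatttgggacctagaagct
Slc1a1: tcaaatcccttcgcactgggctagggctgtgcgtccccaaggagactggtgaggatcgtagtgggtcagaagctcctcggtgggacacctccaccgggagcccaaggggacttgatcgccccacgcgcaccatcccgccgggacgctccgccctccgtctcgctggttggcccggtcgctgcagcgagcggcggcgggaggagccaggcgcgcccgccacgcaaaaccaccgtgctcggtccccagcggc
Slc1a3: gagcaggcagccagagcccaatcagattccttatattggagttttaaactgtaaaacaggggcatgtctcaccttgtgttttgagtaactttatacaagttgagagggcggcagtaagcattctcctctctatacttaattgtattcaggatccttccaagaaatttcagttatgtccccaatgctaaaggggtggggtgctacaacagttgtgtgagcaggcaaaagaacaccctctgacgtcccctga
Slc1a2: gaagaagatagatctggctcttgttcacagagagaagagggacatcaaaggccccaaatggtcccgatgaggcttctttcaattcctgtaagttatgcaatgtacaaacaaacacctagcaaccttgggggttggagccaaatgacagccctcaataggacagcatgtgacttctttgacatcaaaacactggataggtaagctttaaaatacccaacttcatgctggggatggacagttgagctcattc

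Of these windows only that of Slc7a7 held the core TGATGNAA, searched on both strands, with its first base 141 bases before the start. The core was found in 3 of the 47 windows, those of Slc7a7, Slc7a11 and Slc6a21, against 3.53% of 27025 RefSeq promoter windows of the same length. Slc7a11 held it at 66 and, on the opposite strand, at 47 bases before its start, and its signal stayed under the receptor background. The E-box CACGTG, the same on both strands, was in 9 of 47 windows (19.1%, against 6.04% of all), and the core of the antioxidant response element, TGACNNNGC, in 6 (12.8%, against 10.1%). The windows of the 4 genes held neither. Base composition differed between sets, with a median GC share of 57.6% for the 47 windows and 52.0% for all, and among the 4 genes it was 70.4% for Slc1a1, 48.8% for Slc7a7 and 44.8% for both Slc1a2 and Slc1a3. A match is a description of letters and was not tested as a site.

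The neutral Slc1 carriers Slc1a4 and Slc1a5, which exchange serine, alanine and glutamine, were both higher by their means without passing. Slc1a4 read 8.01 and 7.98 in controls and 8.62 and 8.48 in depleted cells. Slc1a5, the glutamine carrier used by many dividing cells, read 7.77 and 7.53 in controls and 8.22 and 7.98 in depleted cells. Neither gene's groups overlapped, and the log2 fold changes were 0.56 and 0.45 (limma adjusted p = 0.206 and 0.277). Slc1a4 had 0.54 and Slc1a5 0.33 without control replicate 2.

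Slc38 genes, whose products carry glutamine and small neutral amino acids, split by size of change and by array. Slc38a2, the system A carrier induced when amino acids run short, read 9.35 and 9.34 in controls and 9.63 and 9.81 in depleted cells. Slc38a4, an imprinted gene for a related carrier, read 9.33 and 9.29 in controls and 9.85 and 9.71 in depleted cells. Neither gene's groups overlapped, with depleted cells higher, and their log2 fold changes of 0.37 and 0.46 did not pass (limma adjusted p = 0.353 and 0.270). Slc38a1 read 7.74 and 6.98 in controls and 7.71 and 7.86 in depleted cells. Slc38a9, the lysosomal arginine sensor of mTORC1, read 7.83 and 7.28 in controls and 7.81 and 7.94 in depleted cells. In both genes control replicate 2 alone was low, and their log2 fold changes were 0.42 and 0.32 with all arrays and 0.05 and 0.04 without it. Slc38a7, a lysosomal glutamine carrier, stood at −0.56 (−0.45 without control replicate 2; limma adjusted p = 0.198) and Slc38a5 at −0.29 (0.016 without that array). Slc38a1 and Slc38a9 each had 2 probe sets, whose log2 fold changes were 0.42 and 0.49, and 0.32 and 0.32. The median of the 11 Slc38 genes was 0.23, and 0.03 without control replicate 2, with 6 higher by their means and 5 lower.

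None of the 5 cationic carriers passed (limma; 0 higher and 1 lower at an unadjusted p under 0.05). Slc7a1, a carrier of arginine and lysine, read 8.82 and 8.76 in controls and 8.51 and 8.80 in depleted cells. Slc7a3, a close relative, read 9.60 and 9.63 in controls and 10.03 and 9.99 in depleted cells. The groups overlapped for Slc7a1, which stood at −0.13 (limma adjusted p = 0.727; 0.081 after median centring of the arrays and 0.013 without depleted replicate 1), while the depleted arrays of Slc7a3 were above both controls at 0.39 (limma adjusted p = 0.329). Replicates of Slc7a3 differed by less than the groups did, with SDs of 0.024 and 0.025 (n = 2 each), but the fit gave every gene the same standard error. Slc7a4, a family member without settled transport activity, read 8.14 and 8.68 in controls and 7.69 and 7.81 in depleted cells. It was the only one of the 5 past 1.5-fold without overlap (log2 fold change −0.66, limma adjusted p = 0.140), and stood at −0.39 without control replicate 2. Slc7a4 passed in limma with 50 added before log2.

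The 3 Slc43 genes lay on both sides of 0. Slc43a1, a carrier of branched-chain amino acids, read 6.93 and 6.34 in controls and 7.16 and 7.34 in depleted cells. Slc43a3, whose product carries purine bases, read 6.76 and 6.49 in controls and 7.53 and 7.22 in depleted cells. Slc43a2, a relative of Slc43a1 with similar substrates, read 7.66 and 7.75 in controls and 7.14 and 7.29 in depleted cells. No group overlapped, with Slc43a1 and Slc43a3 higher by 0.62 and 0.75 and Slc43a2 lower by 0.49 on the log2 scale, and none passed (limma adjusted p = 0.166, 0.0915 and 0.252). Without control replicate 2, Slc43a1 stood at 0.32 and Slc43a3 at 0.62. Slc43a3 passed in limma with 50 added before log2, with the dimmer 0.5 of genes left out and with only genes above the receptor background tested.

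Of the 4 Slc36 genes, a family that includes proton-coupled carriers of small amino acids, 1 was above the receptor background. Slc36a1, the lysosomal member, read 7.37 and 7.26 in controls and 7.09 and 6.98 in depleted cells, a log2 fold change of −0.28 without overlap (limma adjusted p = 0.466). Slc36a4 stood at 0.69, and at 0.35 without control replicate 2, under the receptor background (limma adjusted p = 0.122).

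Among 10 Slc6 amino acid carriers, 1 lay above the receptor background. Slc6a9, the glycine carrier, read 6.06 and 6.25 in controls and 6.83 and 6.66 in depleted cells. The depleted arrays were higher without overlap, all readings were under the receptor background, and the log2 fold change of 0.59 did not pass (limma adjusted p = 0.182). Slc6a15, a carrier of branched-chain amino acids and proline, stood at 0.80 (limma adjusted p = 0.0724) and at 0.59 without control replicate 2. Its mean signal of 5.70 lay farther under the receptor background than that of Slc6a9 (6.45). Of the 10 Slc6 genes for other substrates, 9 were lower by their means, 4 lay above the receptor background, and 0 passed the limma test (0 higher and 1 lower at an unadjusted p under 0.05). The exception in direction was the taurine carrier gene Slc6a6 at 0.30. The creatine carrier gene Slc6a8 stood at −0.40 and the noradrenaline carrier gene Slc6a2, under the receptor background, at −0.65 (limma adjusted p = 0.323 and 0.146). The median of these 10 was −0.37, and −0.18 without control replicate 2, beside −0.20 and −0.05 for the 1194 receptor genes.

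**Figure D2:**
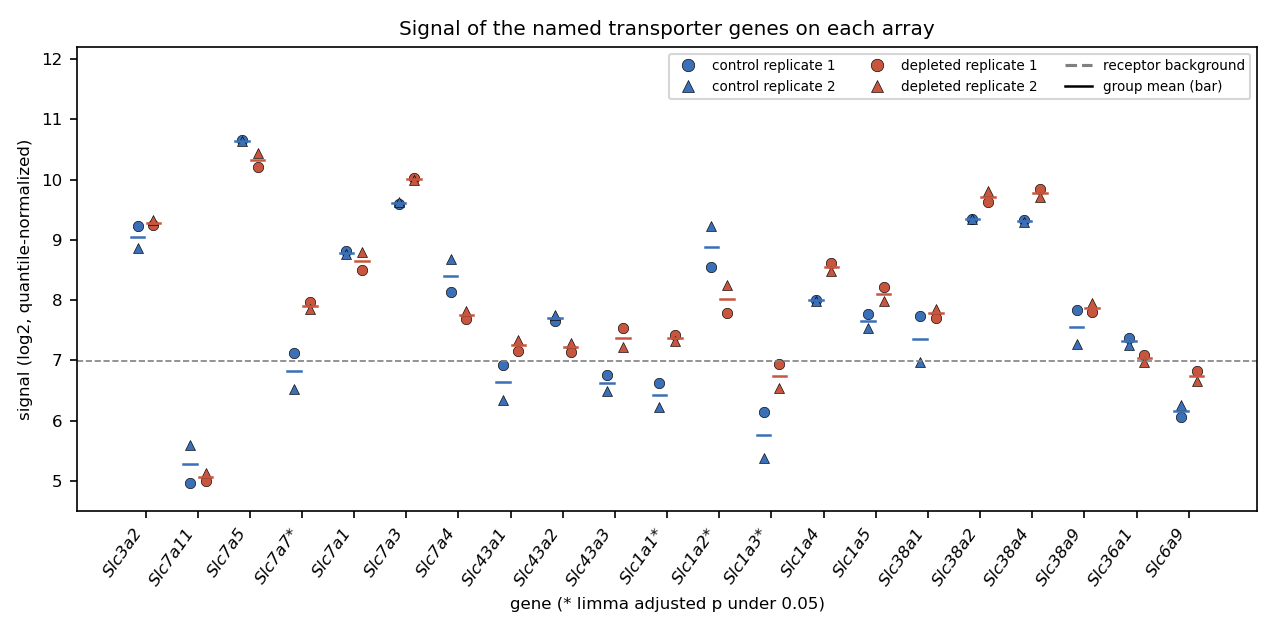
Signal (log2, quantile-normalized) of 21 transporter genes on each of the 4 arrays, with controls in blue, depleted cells in red, circles for replicate 1, triangles for replicate 2 and bars for group means. The dashed line is the receptor background of 6.99, and control replicate 2 is the low reading in Slc38a1 (6.98) and Slc38a9 (7.28).

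Counted without the model, 8 of the 64 genes (12.5%) were at least 1.5-fold higher with no overlap between groups, against 12.1% of all genes, and 4 (6.25%) were at least 1.5-fold lower, against 3.35% of all genes. The higher ones were Slc7a7, Slc1a1, Slc1a3, Slc43a1, Slc43a3, Slc36a4, Slc6a9 and Slc6a15, and the lower ones Slc1a2, Slc7a4, Slc7a10 and Slc6a2. The share in the higher direction was thus at the level of all genes. In 11 of these 12 genes control replicate 2 was the control farther from the depleted cells, as in 94.7% of all genes that met the same rule. Of the 28 transporter-family genes above the receptor background, 2 met it as higher (7.14%, beside 11.9% of all genes above the background). Another 2 met it as lower (7.14%, beside 4.82%). By sign alone 25 of the 64 genes were higher and 39 lower (60.9%, beside 57.4% of all genes). The median log2 fold change of the 64 was −0.27, against −0.12 for all genes. Without control replicate 2 these were −0.10 and −0.05, and after median centring of the arrays −0.20 and −0.09.

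The set was also read by signal level. A total of 28 genes of the 64 exceeded the receptor background, with a median log2 fold change of −0.20, against −0.03 for all 9736 genes above it. The median of the 28 was −0.01 without control replicate 2 and 0.02 after median centring of the arrays. For all genes above the background these values were −0.07 and 0.13. The sign of the median of the 28 thus depended on the scaling. Whether it lay under or over that of all genes depended on control replicate 2. The other 36 had a median of −0.28, against −0.15 for all genes at or under the background (−0.30 and −0.17 after centring). With eBayes set to an intensity trend and robust fitting, limma called fewer of the 64 genes. Slc7a7 and Slc1a2 passed (adjusted p = 0.0248 and 0.00977) and Slc1a1 and Slc1a3 did not (0.0585 and 0.0573). Under these settings 1.91% of all genes rose and 1.7% fell. Of the 381 rises 272, and of the 339 falls 337, were in genes above the receptor background. Slc38a4 came next after Slc7a7 and Slc1a2 among the bright carriers (limma adjusted p = 0.0512).

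**Figure D3:**
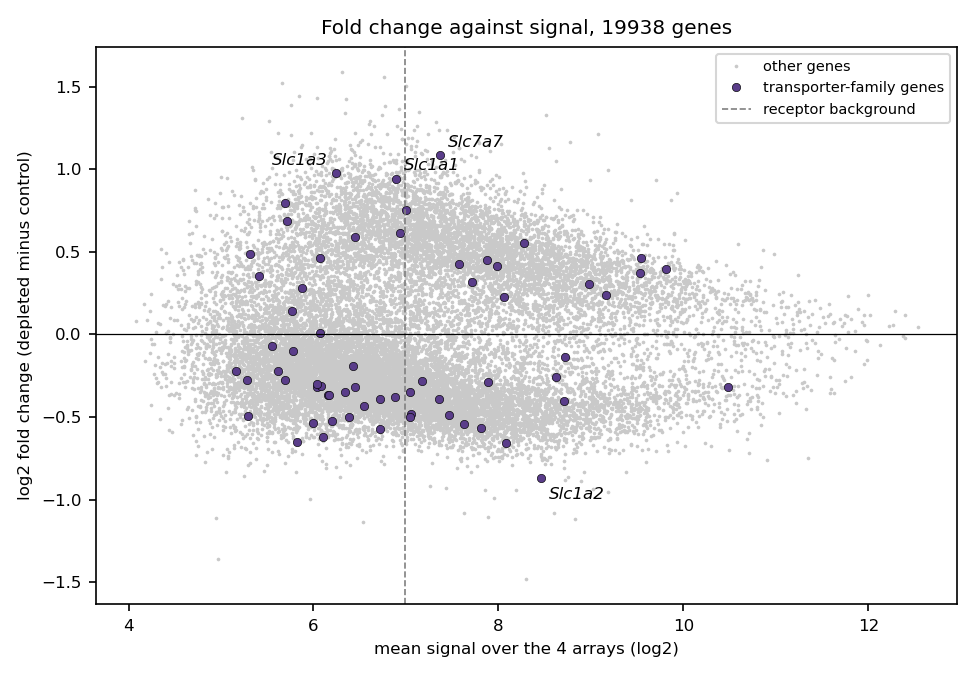
Log2 fold change (depleted minus control) against mean signal over the 4 arrays (log2) for 19938 genes, with the 64 transporter-family genes in purple and the receptor background as a dashed line. Slc1a1 and Slc1a3 lie to the left of the dashed line, and Slc7a7 and Slc1a2 are among the 28 of the 64 genes to its right.

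No call among the 64 held without control replicate 2. There the log2 fold changes were 0.79 for Slc7a7, 0.74 for Slc1a1, 0.59 for Slc1a3 and −0.53 for Slc1a2, with limma adjusted p from 0.112 to 0.277, and 7 genes were higher and 5 lower at an unadjusted p under 0.05 (all genes 9.92% and 6.16%). Without control replicate 1 the set had 15 rises and 20 falls, where 24.5% of all genes rose and 21.2% fell. Without either depleted array it had 0 rises and 0 falls in limma. At an unadjusted p under 0.05 there were 2 higher and 0 lower without depleted replicate 1 (all genes 2.71% and 0.241%), and 7 and 2 without depleted replicate 2 (8.17% and 1.7%). All 4 genes kept their sign each time, as genes without overlap must. Some genes that did not pass kept nearly the same value whichever control was left out, as follows when the 2 control readings lie close together. Among them were Slc7a3 (0.38 to 0.41), Slc38a2 (0.37), Slc38a4 (0.44 to 0.48), Slc1a4 (0.54 to 0.57), Slc6a8 (−0.40) and Slc7a10 (−0.64 to −0.61). With a depleted array left out instead, Slc38a2 ran from 0.28 to 0.46. The scaling moved some of these genes more. Median centring gave 0.62 for Slc7a3, 0.60 for Slc38a2, 0.68 for Slc38a4, 0.74 for Slc1a4 and −0.18 for Slc6a8.

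**Figure D4:**
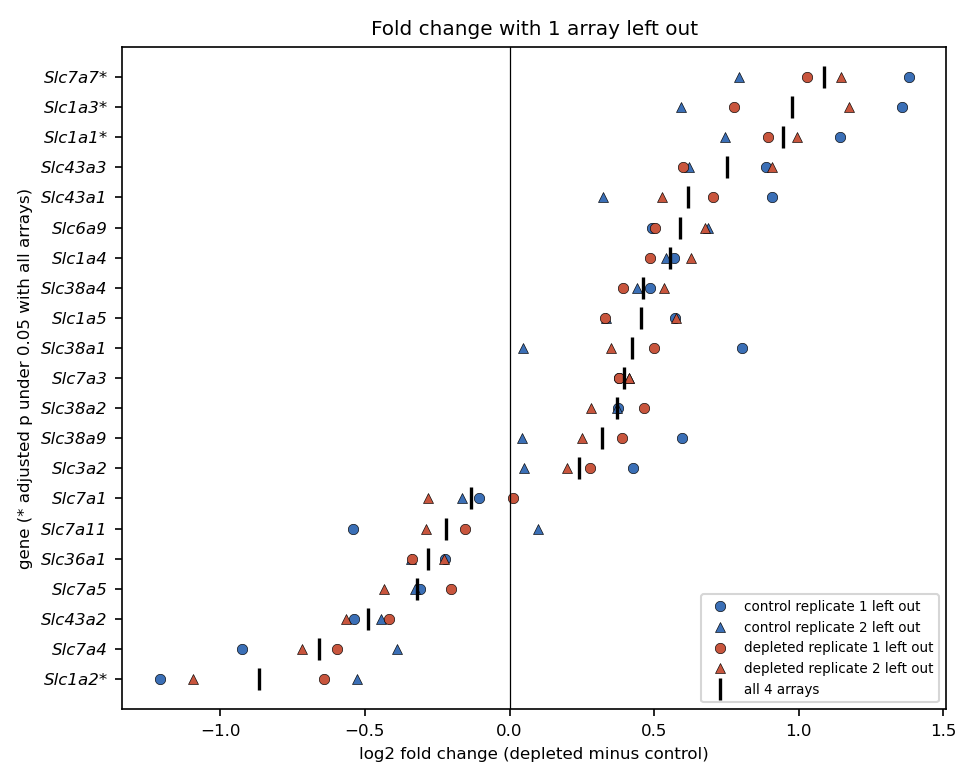
Log2 fold change (depleted minus control) of 21 transporter genes with all 4 arrays (black ticks) and with 1 array left out (blue for a control, red for a depleted array). Leaving out control replicate 2 (blue triangles) moved Slc38a1 from 0.42 to 0.05 and Slc1a2 from −0.87 to −0.53, while Slc7a3 stayed between 0.38 and 0.41.

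Genes of amino acid supply outside these families were read from the same fit, where 2.62% of all genes rose and 0.105% fell, 15.4% were higher and 6.63% lower at an unadjusted p under 0.05, and 42.6% were higher by their means. Of 31 measured targets and kinases of the amino acid response, which ATF4 drives, 0 rose and 0 fell (limma; 5 higher and 3 lower at an unadjusted p under 0.05), with a median log2 fold change of 0.12. The hormone gene Stc2 stood at 0.84, the serine hydroxymethyltransferase gene Shmt2 at 0.81, Chac1, which degrades glutathione, at −0.66 and the factor gene Atf5 at −0.64. With the intensity trend and robust settings Shmt2 rose, and Atf5, the tryptophan tRNA synthetase gene Wars and the asparagine synthetase gene Asns fell (limma adjusted p = 0.0497, 0.0138, 0.0186 and 0.0309). Over all genes 1.91% rose and 1.7% fell under these settings. Of 35 measured genes of mTORC1, its regulators and its amino acid sensors, 1 rose, the GATOR subunit gene Mios (log2 fold change 0.96, limma adjusted p = 0.0284), and 0 fell. At an unadjusted limma p under 0.05, 10 of the 35 were higher (28.6%) and 3 lower (8.57%). The mean signal of Mios, 6.98, was under the receptor background. Its call was lost with the intensity trend and robust settings (limma adjusted p = 0.0551), without control replicate 2 (0.51, limma adjusted p = 0.276) and without depleted replicate 1 or 2 (0.830 and 0.411). Sesn1, a leucine sensor family member, Seh1l and Fnip2 stood at 0.83, 0.77 and 0.75, and the median was 0.15 (−0.06 without control replicate 2).

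Of 20 measured amino acid carriers of other families, such as those of mitochondria and synaptic vesicles, 0 rose and 0 fell (limma; 4 higher and 2 lower at an unadjusted p under 0.05). The mitochondrial carrier genes Slc25a2 and Slc25a18 stood at 0.71 and −0.64, the mitochondrial serine carrier gene Sfxn1 at 0.61 and Ctns, the lysosomal cystine exporter, at 0.60. Of 16 measured glutathione and cystine genes, 0 rose and 0 fell (limma; 4 and 2 at an unadjusted p under 0.05). Gclm, a subunit of the enzyme that joins glutamate to cysteine, stood at 0.74, Anpep at 0.74 and Oplah at −0.65. Of 11 measured genes of threonine, glycine and methionine use, 0 rose and 0 fell (limma; 4 higher and 0 lower at an unadjusted p under 0.05). The list held 14, and the threonine dehydrogenase gene Tdh, Mat2a and Ahcy were not found under 1 symbol. By their means 10 of the 11 were higher (90.9%, beside 42.6% of all genes and 49.1% of those above the receptor background). The median of the 11 was 0.47 (0.31 without control replicate 2). Shmt2, the glycine cleavage genes Dld (0.71) and Gldc (0.70) and the methionine adenosyltransferase subunit gene Mat2b (0.62) had the lowest p in that list. With the intensity trend and robust settings Shmt2 and Mat2b passed (limma adjusted p = 0.0497 and 0.0479; 1.91% of all genes rose and 1.7% fell).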

How the data were processed

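For each of 28856 probe sets the authors deposited a linear intensity per array, as judged from the values. How these were summarised, background-corrected and normalized, and on which genome build, is not given in the sources used here. They reached down to 16.0, with medians of 110 to 128 per array. Here log2 was taken, then the arrays were quantile-normalized. GEO's platform annotation, which can be old, gave 1 symbol to 21789 probe sets, several to 1621, and 5446 were unnamed here. Per gene, the probe set with the highest mean log2 signal stood for it, a choice that concerned 2 of the 64 genes, and all 64 matched RefSeq by gene ID.

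The test was limma 3.58.1 under R 4.3.3, with lmFit and eBayes on 2 groups, two-sided, with Benjamini-Hochberg adjustment over 19938 genes and a threshold of 0.05. Its script was tested on simulated data. With 2 residual degrees of freedom and infinite prior degrees of freedom, every gene had a standard error of 0.27, and the smallest called change was 0.86. Permuting 2 and 2 arrays exactly gives no p under 0.333. The number of arrays limits the precision. The median of all genes was −0.12 as used, −0.24 without scaling and −0.09 after median centring of the arrays, and fold changes were not shifted by it.

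The gene set, the roles, the related lists and markers and the alternatives were chosen with earlier results of these data known. Array values were printed for genes that passed, for genes past 1.5-fold without overlap whose brighter group exceeded the receptor background, and for 14 carriers set by name. Other genes were named for their role or, in related lists, as the 4 with the lowest p, and some single carriers after their values were seen. Alternatives were other scaling, 50 added before log2, filters on dim genes, averaged probe sets, limma's trend and robust settings, a replicate block and each array left out.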

Additional observations from a re-analysis of the deposited data

How the results depend on the processing

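Without scaling, 75 genes rose and 10 fell, of the transporter-family genes 1 and 0, and the median of the latter was −0.34. Centring each array on its median gave 927 rises, 0 falls among transporter-family genes and a median of −0.20 for them. With 50 added before log2, 1228 genes rose and 365 fell. Of the transporter-family genes 4 rose and 2 fell, Slc43a3 and Slc7a4 being the additions, and the median of the 64 was −0.13. Leaving out the dimmest 0.25 of genes gave 36 falls, leaving out the dimmer 0.5 gave 148 and testing only genes above the receptor background 149, and the median was −0.20 with either of the last. Slc43a3 was an added rise with either of them. The intensity trend gave 326 rises and 286 falls, robust settings 295 and 11, and both together 339 falls. Of the transporter-family genes 1 rose with the trend alone and with both, and 0 fell with robust settings alone. With the replicate number as a block, 856 genes rose and 42 fell, and 4 and 1 of the transporter-family genes, Slc6a15 being the addition. The numbers are only labels here, and same-numbered arrays deviated together with a correlation of 0.10 across genes. With 1 array left out, where the lone array is assumed to vary like the other group, rises ran from 0 to 4884 and falls from 0 to 4236 over all genes, from 0 to 15 and 0 to 20 in the 64, their median from −0.34 to −0.10, and Usp22 from −1.15 to −1.09. Usp22 lost its call without either depleted array. The sign turned for Slc7a1, at 0.081 with centring and from −0.28 to 0.013 with 1 array left out, and likewise for Slc7a11 (−0.54 to 0.10), Slc7a8 (−0.26 to 1.24) and Slc38a5 (−0.60 to 0.016). For the latter 3 the turned sign came without control replicate 2. Slc7a7 passed under every setting that kept all 4 arrays, while Slc1a1 and Slc1a3 lost their calls without scaling and with the trend, and Slc1a2 without scaling, with centring and with robust settings alone. The cause of these changes was not tested. Of 738 comparisons of 52 named genes with an alternative, 620 kept direction and side of the threshold. Most of the 52 had not passed with all arrays, and a gene that stayed uncalled in the same direction counts as kept. The count therefore says little about how well the calls held.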

Other observations

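Log2 fold changes near 0 were counted. Of the 28 transporter-family genes above the receptor background, 0 had a log2 fold change under 0.1 in size and 22 (78.6%) were at 0.3 or beyond. Of all 9736 genes above the background, 7.69% were under 0.1 in size and 70.0% were at 0.3 or beyond. Without control replicate 2, 7 of the 28 genes and 15.2% of all genes above the background were under 0.1. Of the 64 genes 18.8% and of all genes 19.0% were then under 0.1, against 3.12% and 10.9% with all arrays. Among the receptor genes 20.0% were under 0.1 with all arrays and 28.0% without control replicate 2. These shares are descriptions, and genes are not independent replicates.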
